A study of Homo sapiens with 4 samples.

Results

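The genes described here are 10 regulators and reporters of the integrated stress response and the unfolded protein response: ATF4, DDIT3, ASNS, CHAC1, TRIB3, SESN2, XBP1, ATF6, ERN1 and EIF2AK3. They were chosen by name, as the rows of the deposited expression table that carry these symbols, and all 10 were found among its 48162 genes. RNA-seq was made from MDA-MB-231 cells, an established human breast cancer line that is mesenchymal and lacks hormone receptors. In 2 libraries the cells had been given MGH-CP1 for 24 h, at 10 µM by the labels and at 10 mM by the methods of the study, and in the other 2 the vehicle control. MGH-CP1 is a small molecule that blocks the palmitoylation of TEAD, the transcription factors through which YAP and TAZ act. Nothing in the sources used here says that the libraries of a group came from separate cultures, so p-values measure the spread between these libraries, which may be technical.

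As background, cells sense unfolded protein in the endoplasmic reticulum (ER) through the membrane proteins PERK (the product of EIF2AK3), IRE1 (ERN1) and ATF6. PERK is also a kinase of eIF2α, and phosphorylated eIF2α slows translation in general while that of ATF4 rises, so the mRNA of ATF4 is not a measure of its protein. ATF4 in turn drives genes of amino acid supply, while IRE1 splices the mRNA of XBP1 and ATF6 is cut in the Golgi, and FPKM summed over a gene shows neither step.

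The values are FPKM, the fragments on a gene per kilobase of its length, scaled to the total of fragments on the listed genes. The total was 25455533 for vehicle control replicate 1 and 25508824 for replicate 2. It was lower for MGH-CP1, at 17997221 (replicate 1) and 17577930 (replicate 2). Mitochondrial genes took 0.447% and 0.418% of the fragments in the vehicle control and 1.57% and 1.53% after MGH-CP1, and the part of this shift in the results below was not tested, beyond the library totals without these genes, under which the calls of the 10 genes were the same in number. CYR61, CTGF and ANKRD1, targets of YAP and TEAD, fell by 0.75, 0.66 and 0.66 on the log2 scale. Of the markers of the line, VIM, CD44, MSN and AXL lay between 149 and 341 FPKM in the 4 libraries, with AXL lower after MGH-CP1 (log2 fold change -0.76), and ESR1, PGR and CDH1 lay below 1, while EPCAM (12.4 to 16.4 FPKM) and GATA3 (4.17 to 5.65) were detected. Of the markers of blood, endothelial and stromal cells, PTPRC, CD3E, VWF and DCN were at or near 0, PDGFRB lay between 1.24 and 1.67 FPKM, and CD14 between 1.79 and 4.07, higher after MGH-CP1 (log2 fold change 0.59). Of these 6 markers, only PDGFRB and CD14, 2 in number, averaged 1 FPKM or more. Their summed level was 3.84 and 3.03 FPKM in the vehicle control and 5.65 and 4.96 after MGH-CP1. The part of the 6 markers in the results was not tested.

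Of the 10 genes, 2 were higher after MGH-CP1 (DDIT3 and ERN1), 3 were lower (ASNS, SESN2 and ATF6) and 5 were not called (ATF4, CHAC1, TRIB3, XBP1 and EIF2AK3). A gene is called here at an adjusted p under 0.05 from limma on log2(FPKM + 1), with Benjamini-Hochberg adjustment over the 12080 genes whose FPKM averaged 1 or more, a filter that all 10 passed. Among those 12080 genes, 27.1% were called higher and 23.8% lower, so the shares of the 10 genes, 20% and 30%, lie near the background. The median log2 fold change of the 10 genes was 0.02, against 0.01 over all genes tested. The libraries of the groups did not overlap for 6 of the 10 genes, and for 77.2% of all genes tested. In these bulk libraries a lower level of a gene in each cell and fewer cells that express it cannot be told apart.

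**Figure D1:**
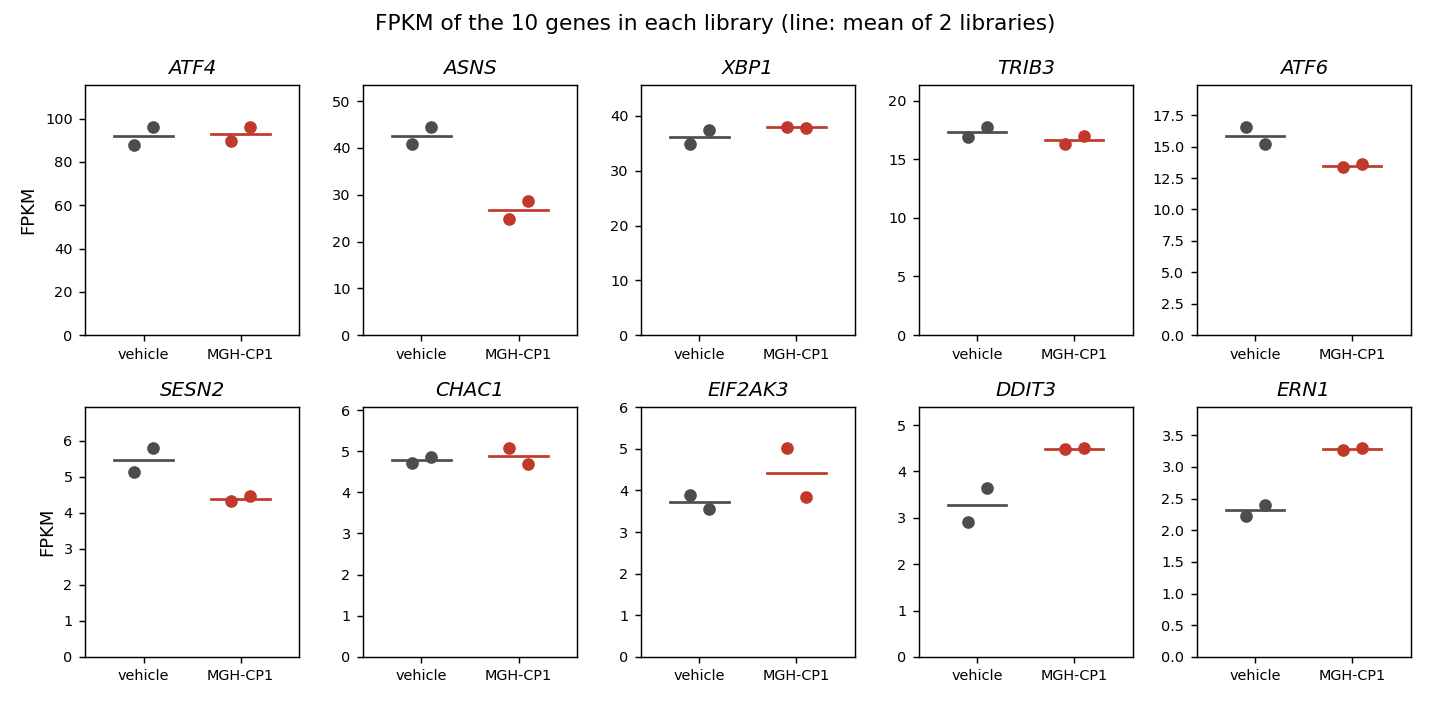
FPKM of each of the 10 genes (vertical axes, each from 0) in the 2 vehicle control (grey) and the 2 MGH-CP1 (red) libraries; points are libraries and lines the mean of 2. ASNS falls from 40.8 and 44.6 to 24.7 and 28.7, while the points of ATF4 overlap.

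ATF4, the transcription factor at the centre of the response (ENSG00000128272, hg19 chr22:39915700-39918691, plus strand), was the most abundant of the 10, with 87.7 and 96.3 FPKM in the vehicle control and 89.9 and 96.1 after MGH-CP1. The groups overlapped, and the replicates of each group lay farther apart than the group means. The log2 fold change was 0.02 with an SE of 0.06 (95% interval -0.12 to 0.16, limma adjusted p = 0.841), with 3266 to 4960 fragments per library. Its sign changed to -0.04 with median-ratio scaling and to -0.05 or -0.03 without vehicle control replicate 1 or MGH-CP1 replicate 2, and in none of the settings tried was it called. The processed copies of ATF4 listed in the table held at most 3 fragments in any library. The 3 genes whose pattern over the 4 libraries lay nearest to that of ATF4 were the zinc finger genes ZNF512 and ZNF343 and the cytokine receptor gene CSF2RA, at Euclidean distances of 0.00824, 0.0157 and 0.0169 in log2(FPKM + 1) after each gene was centred on its vehicle control mean.

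ASNS encodes asparagine synthetase, which makes asparagine from aspartate and glutamine and is a textbook target of ATF4 (ENSG00000070669, hg19 chr7:97481430-97501854, minus strand). It had 40.8 and 44.6 FPKM in the vehicle control and 24.7 and 28.7 after MGH-CP1. Both MGH-CP1 libraries lay far below both vehicle control libraries, and the mean fell by 37.4%. The log2 fold change was -0.66 with an SE of 0.08 (limma adjusted p = 3.20e-04), and 2.94% of the genes tested fell more. Leaving out each library in turn gave -0.76 to -0.56 and kept the call in 4 of 4 cases. Only the test that shares no variance between genes, of those tried, ended it (adjusted p = 0.0993). The ratio of ASNS to ATF4, in FPKM, was 0.465 and 0.463 in the vehicle control and 0.275 and 0.299 after MGH-CP1, so the level of ASNS per unit of ATF4 mRNA was lower in both treated libraries.

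The 250 bases before the RefSeq start of ASNS (GRCh38.p14 chr7:97872409-97872658, minus strand) are shown because they hold, 68 bases before the start, the letters of the C/EBP-ATF response element (CARE), a site that ATF4 is known to bind. Capitals mark the match to TGATGNAAN, searched on both strands, which occurs in 1268 of 35116 RefSeq windows from 250 bases before to 50 after a start (3.61%). These coordinates are of another build than the hg19 positions of the table.
ASNS: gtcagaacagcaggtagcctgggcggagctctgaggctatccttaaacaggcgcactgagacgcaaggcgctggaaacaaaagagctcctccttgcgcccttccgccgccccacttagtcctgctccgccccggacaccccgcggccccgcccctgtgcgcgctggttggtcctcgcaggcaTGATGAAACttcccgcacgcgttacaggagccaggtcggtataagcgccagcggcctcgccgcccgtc

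SESN2 encodes sestrin 2, a stress-induced sensor of leucine that restrains mTORC1 (ENSG00000130766, hg19 chr1:28586038-28609002, plus strand). It had 5.14 and 5.79 FPKM in the vehicle control and 4.33 and 4.46 after MGH-CP1, from 269 to 510 fragments. The treated libraries both lay below the controls, with a log2 fold change of -0.26 (SE 0.09, limma adjusted p = 0.0354). The call was kept in 1 of 4 fits with a library left out (adjusted p = 0.207 without vehicle control replicate 2, 0.122 and 0.0803 without MGH-CP1 replicate 1 or 2), and it was lost with no filter on low values (0.118) and with variance not shared (0.152). Its paralogues SESN1 (log2 fold change -0.11) and SESN3 (0.28) were not called, although SESN3 passed with limma without the trend and with limma voom.

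TRIB3, a pseudokinase induced by ATF4 and DDIT3 that feeds back on them (ENSG00000101255, hg19 chr20:361261-378203, plus strand), had 16.9 and 17.8 FPKM in the vehicle control and 16.3 and 16.9 after MGH-CP1. The groups met at 16.9, and the log2 fold change was -0.06 (SE 0.06, 95% interval -0.20 to 0.08, limma adjusted p = 0.446). Of the 5 paralogues listed for the 10 genes, 2 were higher (40%) and 1 lower (20%), against 27.1% and 23.8% of all genes tested. Their median log2 fold change, 0.28, is the value of SESN3, which was not called, and it was 0.12 with quantile normalization. The higher ones were those of TRIB3. TRIB1 rose from 2.68 and 2.74 to 5.44 and 6.01 FPKM (log2 fold change 0.86, limma adjusted p = 1.7e-04), and TRIB2 from 18.2 and 16.5 to 34.4 and 30.3 (0.86, adjusted p = 9.4e-05).

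CHAC1, which degrades glutathione and is induced through ATF4 (ENSG00000128965, hg19 chr15:41245160-41248710, plus strand), had 4.71 and 4.85 FPKM in the vehicle control and 5.07 and 4.69 after MGH-CP1, so the treated libraries lay on either side of the controls. Its log2 fold change was 0.02 (SE 0.08, 95% interval -0.16 to 0.21, limma adjusted p = 0.827), and the sign turned with median-ratio scaling (-0.02), quantile normalization (-0.06) and without MGH-CP1 replicate 1 (-0.02). CHAC2, its paralogue, fell from 8.18 and 7.06 to 4.08 and 4.52 FPKM (-0.70, adjusted p = 5.3e-04). The upstream window of CHAC1 also holds a CARE, 210 bases before the start on the opposite strand, and this site (chr15:40953251-40953279, minus strand, GRCh38.p14) is set beside that of ASNS (chr7:97872458-97872486, minus strand), with the match in capitals.
ASNS: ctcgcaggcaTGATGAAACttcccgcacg
CHAC1: ctggcaggagTGATGCAACggcaggggag

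DDIT3 encodes CHOP, the transcription factor that ATF4 induces under prolonged stress (ENSG00000175197, hg19 chr12:57910371-57914300, minus strand). It had 2.90 and 3.64 FPKM in the vehicle control and 4.49 and 4.50 after MGH-CP1. The treated libraries lay above both controls and close together, while the controls differed by more. The log2 fold change was 0.37 (SE 0.10, limma adjusted p = 0.0194), from 85 to 107 fragments per library. The call held in 1 of 4 fits with a library left out: the fold change was 0.24 without vehicle control replicate 1 (adjusted p = 0.127), 0.37 without MGH-CP1 replicate 1 or 2 (0.0690 and 0.0662), and 0.49 without vehicle control replicate 2. It was lost with no filter on low values (0.121), quantile normalization (0.0578), limma voom (0.0570), thinning to equal depth (0.0698) and variance not shared (0.183). DDIT3 shares 982 bases with MARS on the opposite strand, and MARS, which fell by 0.49 on the log2 scale, held 2201 to 4723 fragments. Since the strand setting of the counting is not given in the sources used here, reads of the pair in the shared stretch cannot be told apart.

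XBP1, the transcription factor whose mRNA IRE1 splices (ENSG00000100219, hg19 chr22:29190543-29196585, minus strand), had 34.9 and 37.5 FPKM in the vehicle control and 38.0 and 37.8 after MGH-CP1. Both treated libraries lay above both controls, but the group means differed by less than the controls did. The log2 fold change was 0.07 (95% interval -0.06 to 0.19, limma adjusted p = 0.346), positive under each setting tried, and the spliced form was not measured apart. The 250 bases before its RefSeq start (GRCh38.p14 chr22:28800570-28800819, minus strand) are shown for the ER stress response element (ERSE), at which ATF6 is known to act, searched as CCAAT and CCACG separated by 9 bases, on both strands and given whole in capitals. It occurs in 27 of the 35116 windows (0.0769%) and in XBP1 lies 52 bases before the start.
XBP1: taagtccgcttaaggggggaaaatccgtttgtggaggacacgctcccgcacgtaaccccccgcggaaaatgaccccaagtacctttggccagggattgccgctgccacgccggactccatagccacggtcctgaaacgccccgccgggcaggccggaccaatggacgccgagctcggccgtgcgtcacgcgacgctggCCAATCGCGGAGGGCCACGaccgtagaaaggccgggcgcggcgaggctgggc

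Of the 3 sensor genes, ERN1 was higher, ATF6 lower and EIF2AK3 not called, and the differences among them were not tested. ERN1, the gene of IRE1 (ENSG00000178607, hg19 chr17:62120353-62207504, minus strand), had 2.23 and 2.41 FPKM in the vehicle control and 3.27 and 3.29 after MGH-CP1. The groups were well apart, and the mean was 41.8% higher. The log2 fold change was 0.37 (SE 0.09, limma adjusted p = 0.0125), from 228 to 247 fragments per library. The call was kept in 3 of 4 fits with a library left out (adjusted p = 0.0716 without vehicle control replicate 1) and lost with no filter on low values (0.0648) and with variance not shared (0.0710).

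ATF6, whose released fragment is itself a transcription factor of ER chaperone genes (ENSG00000118217, hg19 chr1:161736084-161933860, plus strand), fell from 16.6 and 15.2 FPKM to 13.4 and 13.6. The treated libraries lay below both controls, by 15.0% in the mean, with a log2 fold change of -0.22 (SE 0.07, limma adjusted p = 0.0236). The call was kept in 1 of 4 fits with a library left out (adjusted p = 0.141 without vehicle control replicate 1, 0.0977 and 0.0675 without MGH-CP1 replicate 1 or 2) and was lost with no filter (0.0850) and with variance not shared (0.15).

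EIF2AK3, the gene of PERK (ENSG00000172071, hg19 chr2:88856259-88927094, minus strand), had 3.90 and 3.56 FPKM in the vehicle control and 5.01 and 3.83 after MGH-CP1. MGH-CP1 replicate 1 lay above both controls and replicate 2 between them. The log2 fold change was 0.19 (SE 0.12, 95% interval -0.08 to 0.46, limma adjusted p = 0.208), and without MGH-CP1 replicate 2 it was 0.35 and called (adjusted p = 0.0401).

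**Figure D2:**
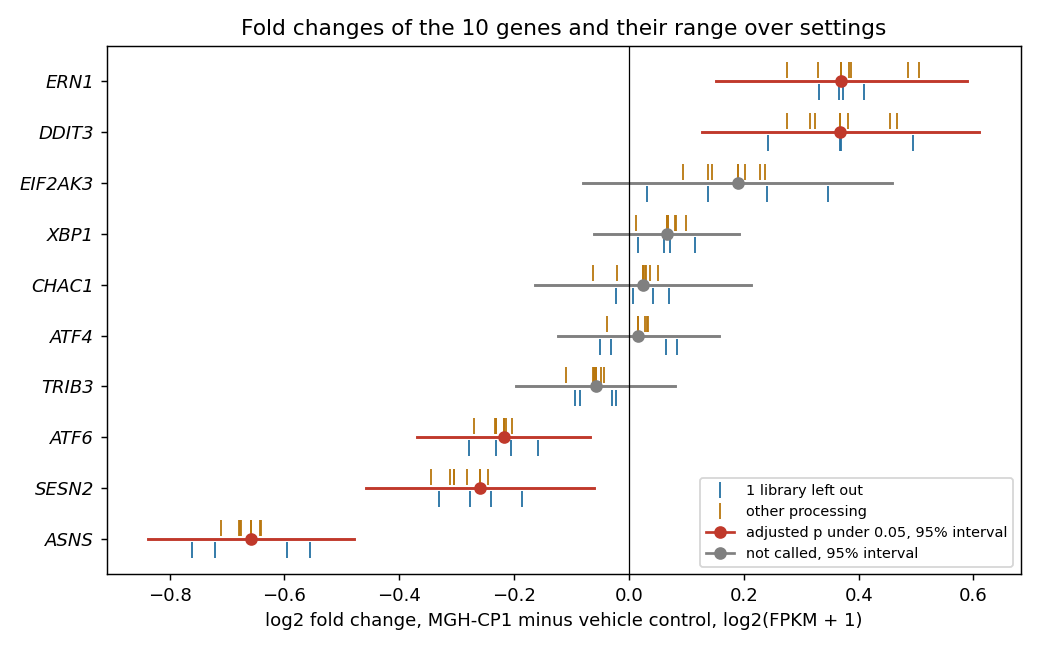
Log2 fold change of each of the 10 genes, MGH-CP1 minus vehicle control on log2(FPKM + 1) (horizontal axis), with the limma 95% interval; red marks an adjusted p under 0.05, blue ticks fits with 1 library left out and ochre ticks other processing. The ticks of ASNS stay between -0.76 and -0.56, while those of ATF4 and CHAC1 lie on both sides of 0.

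By level per length, the order in the vehicle control was ATF4, ASNS, XBP1, TRIB3, ATF6, SESN2, CHAC1, EIF2AK3, DDIT3 and ERN1. Neighbours in this order did not overlap between their 2 control libraries, except EIF2AK3 and DDIT3 (3.56 to 3.90 against 2.90 to 3.64 FPKM). After MGH-CP1, XBP1 (38.0 and 37.8 FPKM) stood above ASNS (24.7 and 28.7). Set against ATF4 in each library, DDIT3 went from 0.0331 and 0.0378 to 0.0499 and 0.0468, and SESN2 from 0.0587 and 0.0601 to 0.0482 and 0.0465, both without overlap. For CHAC1 the ratio was 0.0538 and 0.0504 against 0.0564 and 0.0489, with overlap, and for TRIB3 0.192 and 0.185 against 0.181 and 0.176, without overlap. By the main limma fit, of the genes here that ATF4 is known to induce, ASNS and SESN2 were lower, DDIT3 was higher, and TRIB3 and CHAC1 were not called. With no filter on low values the call of ASNS was kept, and those of SESN2 and DDIT3 were lost.

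The other genes of the pathway were read from 11 lists of 120 genes grouped by role, of which 112 passed the filter. Of these, 22 (19.6%) were higher and 47 (42.0%) lower after MGH-CP1, against 27.1% and 23.8% of all genes tested, with a median log2 fold change of -0.08. The counts of each list below are to be read against the same background. The lists were chosen with earlier results of these data known, and the part of that choice in these shares was not tested. With variance not shared between genes 0 were called, while 57 of the 112 had an unadjusted p under 0.05. In that setting 4947 of all 12080 genes tested had an unadjusted p under 0.05. The lists of amino acid supply, to which ASNS belongs by function, held most of the lower calls. In each of the 4 lists below that held 0 calls in a direction, the count in that direction was also 0 at an unadjusted limma p under 0.05 and with limma voom.

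Genes of amino acid synthesis and one-carbon metabolism were lower in 10 of 10 tested, with a median log2 fold change of -0.40. PSAT1, an aminotransferase of serine synthesis, fell from 71.5 and 73.1 FPKM to 32.7 and 38.1 (log2 fold change -1.01, limma adjusted p = 3.8e-05). MTHFD2, a mitochondrial folate enzyme, fell from 8.84 and 9.07 to 5.09 and 5.69 (-0.64, adjusted p = 3.6e-04), and PHGDH, which opens serine synthesis, from 2.11 and 2.21 to 1.15 and 1.29 (-0.51, adjusted p = 0.00601, and -0.82 with limma voom). With no filter on low values, where 12 could be tested, 6 were called lower, and the summed FPKM of the list after MGH-CP1 was 0.701 of that in the control.

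Amino acid transporters split, with 7 of 9 lower, 2 higher and a median of -0.46. SLC7A5, the light chain of the large neutral amino acid carrier, fell from 183 and 189 FPKM to 75.5 and 90.3 (log2 fold change -1.16, limma adjusted p = 3.3e-05), and its heavy chain SLC3A2 from 88.2 and 95.3 to 63.2 and 70.1 (-0.46). SLC7A1, which carries arginine and lysine, fell from 53.1 and 52.2 to 26.5 and 31.5 (-0.84). Also lower were the neutral amino acid carriers SLC1A4 (-0.69) and SLC1A5 (-0.55), the cystine carrier SLC7A11 (-0.42) and SLC43A1 (-0.33). SLC38A2, the sodium-coupled carrier SNAT2, rose from 84.8 and 80.0 to 125 and 117 FPKM (0.55, adjusted p = 1.5e-04), and the glycine carrier SLC6A9 from 14.3 and 13.2 to 18.3 and 17.0 (0.34, adjusted p = 0.00397). All 9 calls were kept in each fit with a library left out, and those of SLC7A11 and SLC1A5 were lost with no filter on low values.

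Aminoacyl-tRNA synthetases, which charge tRNA, were lower in 11 of 12, with a median of -0.40. IARS fell from 99.0 and 99.0 FPKM to 54.3 and 63.4 (log2 fold change -0.74, limma adjusted p = 1.2e-04), YARS from 58.6 and 62.0 to 39.2 and 43.2 (-0.54), and MARS from 49.5 and 51.5 to 36.3 and 34.9 (-0.49). CARS, named after its value was seen as the 1 gene not called, had 17.3 and 17.3 against 18.5 and 16.6, a log2 fold change of 0.02 that turned to -0.04 with median-ratio scaling. Over these 3 lists together, 28 of 31 genes were lower. MGH-CP1 replicate 1 lay below replicate 2 for 23 of the 28, and vehicle control replicate 1 below replicate 2 for 18. With MGH-CP1 replicate 1 left out, the number called lower was 8 for the synthesis genes, 7 for the transporters and 9 for the synthetases.

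Of the 120 listed genes, 98 were matched to a RefSeq window, and all 10 of the genes above. In the 3 amino acid lists 12 of 25 matched genes hold a CARE in any window, against 1215 of the 27305 RefSeq genes (4.45%): GOT1, SLC3A2, SLC7A1, SLC1A4, SLC1A5, AARS, GARS, NARS, IARS, MARS, CARS and TARS. Of the 12, 11 were lower and CARS was not called, with a median log2 fold change of -0.45. Of the matched genes of these lists with no CARE in the window, 12 were tested, of which 10 were lower and 2 higher (median -0.33), so genes fell with and without a match. The lists were written from known ATF4 targets, so this share was to some degree built in, and a match of letters is a description and not a binding site. Sites are shown for the 3 genes that fell most among the 12 with a match (SLC7A5 and PSAT1, which fell more, hold none in these windows), for CARS, which was not called, and for HERPUD1, which rose, with the match in capitals and all read 5′ to 3′ on the strand of the match: SLC7A1 (chr13:29595663-29595691, minus strand, 7 bases after the start), SLC1A4 (chr2:64989381-64989409, minus), IARS (chr9:92293693-92293721, plus), CARS (chr11:3057408-3057436, plus) and HERPUD1 (chr16:56931955-56931983, minus), all GRCh38.p14.
SLC7A1: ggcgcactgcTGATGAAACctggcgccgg
SLC1A4: cggctggagaTGATGCAAAcgggagccgc
IARS: cgcacggaggTGATGCAACgcgctgaaaa
CARS: tcctagaatcTGATGCAACcgccgccccg
HERPUD1: gggcacgggcTGATGCAACccgccgcgtc

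Among the 10 genes and the lists, exactly TGATGCAAC lay near the starts of IARS, MARS, AARS, NARS, GOT1, CEBPG and JDP2, which were lower. It also lay near those of CARS, CHAC1 and PPP1R15B, which were not called, and of HERPUD1, which was higher. Over the 10 genes and the 11 lists, 21 genes hold a CARE. Of the 20 tested, 15 were lower, 1 was higher and 4 were not called. Of the 15, 11 are those of the 3 amino acid lists given above. Of all tested genes of the 11 lists, 42.0% were lower and 19.6% higher, against 23.8% and 27.1% of all genes tested.

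**Figure D3:**
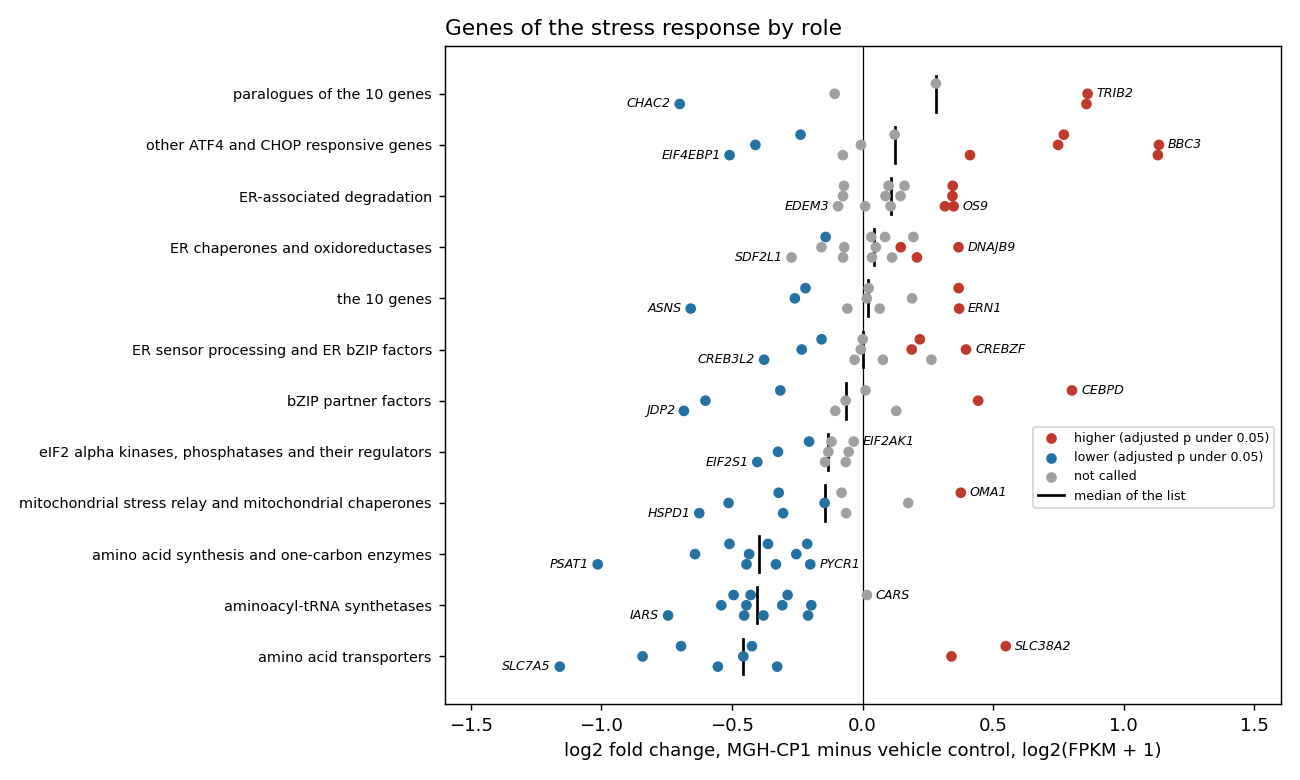
Log2 fold change of each tested gene (points, horizontal axis), MGH-CP1 minus vehicle control on log2(FPKM + 1), for the 10 genes and the 11 lists by role; red is called higher, blue lower and grey not called, and black bars are medians. The 3 amino acid lists lie mostly left of 0, with medians of -0.40, -0.46 and -0.40.

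Genes around the eIF2α kinases were higher in 0 of 9 and lower in 3 (5 with limma voom), with a median of -0.13. EIF2S1, which encodes eIF2α itself, fell from 46.8 and 45.3 FPKM to 34.8 and 34.3 (log2 fold change -0.40, limma adjusted p = 3.8e-04). EIF2AK4, the gene of GCN2, the kinase that senses uncharged tRNA, fell from 29.7 and 28.9 to 23.4 and 23.0 (-0.32, adjusted p = 0.00144). EIF2AK2, the gene of PKR, the kinase that senses double-stranded RNA, fell from 15.6 and 15.0 to 13.1 and 13.2 (-0.20, adjusted p = 0.0208), a call kept in 1 of 4 fits with a library left out.

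Among the bZIP factors that pair with ATF4 or CHOP, listed together with the stress gene NUPR1, 2 of 9 were higher and 3 lower. The median was -0.06, and NUPR1 was not called. CEBPD rose from 12.7 and 13.5 FPKM to 24.5 and 22.6 (log2 fold change 0.80, limma adjusted p = 6.1e-05), and CEBPB, named after its value was seen, from 30.8 and 34.8 to 44.6 and 45.1 (0.44, adjusted p = 8.9e-04). CEBPG, known as a partner of ATF4 at amino acid genes, fell from 13.6 and 12.9 to 8.63 and 8.10 (-0.60, adjusted p = 2.6e-04), and JDP2 from 2.54 and 2.63 to 1.02 and 1.46 (-0.68, adjusted p = 0.00287). The fold change of JDP2 was -1.08 with limma voom, and its call was lost with no filter on low values. The shares called, 22.2% higher and 33.3% lower, lie near those of all genes tested.

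Other genes known to respond to ATF4 or CHOP were higher in 5 of 11 and lower in 3, with a median of 0.12. GDF15, a secreted stress cytokine, rose from 4.36 and 4.10 FPKM to 10.7 and 10.2 (log2 fold change 1.13, limma adjusted p = 2.9e-05). BBC3, the gene of the pro-apoptotic protein PUMA, rose from 3.25 and 3.86 to 8.92 and 9.04 (1.13, adjusted p = 5.4e-05), and DDIT4, an inhibitor of mTORC1, from 36.2 and 41.4 to 67.2 and 66.1 (0.77, adjusted p = 8.1e-05). BBC3 and GDF15 are also known as targets of p53.

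ER chaperones and oxidoreductases include targets of ATF6 and XBP1. Of 14 tested, 3 were higher (21.4%, near the 27.1% of all genes) and 1 lower (7.14% against 23.8%), with a median of 0.04 that turned to -0.01 with median-ratio scaling, under which 2 were higher and 4 lower, and with no filter on low values 1 was higher and 0 lower. HSPA5, the chaperone BiP and the classic reporter of ER stress, had 277 and 272 FPKM in the vehicle control and 296 and 287 after MGH-CP1, above the controls but not called (log2 fold change 0.09, limma adjusted p = 0.15, and -0.05 with quantile normalization). DNAJB9, an ER cochaperone induced through XBP1, rose from 6.63 and 7.10 to 8.90 and 9.39 (0.37, adjusted p = 0.00378). CALR (0.21), P4HB (0.15) and, in the other direction, CANX (-0.14) were called, CALR and P4HB in 2 of 4 and CANX in 1 of 4 fits with a library left out. With quantile normalization CALR went to 0.04 and P4HB to 0.03, both not called, and CANX to -0.26. P4HB kept its call in 5 of the 10 other settings with shared variance, CANX in 7 and CALR in 8. The windows of 6 of 13 matched chaperone genes hold an ERSE (25 of the 27305 RefSeq genes, 0.0916%), and with XBP1 these 7 genes gave 1 higher, 1 lower and 5 not called. The sites of HSPA5 (chr9:125241386-125241414, minus strand) and CALR (chr19:12938379-12938407, minus strand, GRCh38.p14) are set below the one of XBP1 (chr22:28800598-28800626, minus strand), with CCAAT, the bases between and CCACG in capitals.
XBP1: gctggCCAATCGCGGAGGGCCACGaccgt
HSPA5: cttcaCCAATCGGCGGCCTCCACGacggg
CALR: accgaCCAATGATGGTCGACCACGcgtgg

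In ER-associated degradation, 4 of 13 genes were higher, a share of 30.8% that lies near the background, and 0 lower, with a median of 0.11. OS9, a lectin that hands misfolded glycoproteins to the degradation complex, rose from 21.6 and 22.7 FPKM to 31.1 and 26.0 (log2 fold change 0.35, limma adjusted p = 0.00886, and 0.22 without MGH-CP1 replicate 1). EDEM2, which trims mannose from them, rose from 9.63 and 10.7 to 12.6 and 13.7 (0.35), calls that were both lost with no filter on low values (2 higher in the list), and HERPUD1, a scaffold of the complex, from 19.0 and 20.3 to 24.1 and 26.3 (0.34). SYVN1, its ubiquitin ligase, named as the last of the 4 after its value was seen, rose from 23.7 and 23.4 to 30.0 and 29.1 (0.32).

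Genes that process the sensors and their ER-bound relatives were higher in 3 of 11 and lower in 3, with a median of 0.00. With no filter on low values, 1 of 13 was higher and 2 were lower. CREB3L3, named after its value was seen, was removed by the filter and not tested in the main fit. It had 0.0900 and 0.135 FPKM in the vehicle control (6 and 9 fragments) and 1.17 and 1.09 after MGH-CP1 (55 and 50). CREBZF, a bZIP factor, rose from 11.3 and 14.3 FPKM to 18.1 and 16.0 (log2 fold change 0.40, limma adjusted p = 0.0151, and 0.24 and not called without vehicle control replicate 1, with the call also lost without MGH-CP1 replicate 1). CREB3L2, an ER-bound factor cut like ATF6, fell from 33.3 and 32.9 to 24.5 and 26.0 (-0.38, adjusted p = 8.3e-04). RTCB, listed as C22orf28, the ligase that joins XBP1 mRNA after IRE1 has cut it, fell from 37.0 and 37.2 to 32.0 and 30.9 (-0.23, adjusted p = 0.00585).

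On the mitochondrial side, from which stress reaches eIF2α through the protease OMA1, 1 of 9 genes was higher and 5 lower, with a median of -0.15. HSPD1, the matrix chaperonin, fell from 232 and 235 FPKM to 148 and 154 (log2 fold change -0.62, limma adjusted p = 4.0e-05), and HSPA9, a matrix chaperone, from 136 and 134 to 92.3 and 96.2 (-0.51, adjusted p = 9.9e-05). DNAJA3 (-0.32), HSPE1 (-0.30) and YME1L1 (-0.15) were also lower, HSPE1 in 2 of 4 and YME1L1 in 1 of 4 fits with a library left out. OMA1 rose from 3.14 and 3.50 to 4.25 and 4.97 (0.38, adjusted p = 0.0146), a call lost without vehicle control replicate 1 or MGH-CP1 replicate 2. With no filter on low values 0 of the 9 were higher and 3 lower, and OMA1, HSPE1 and YME1L1 were not called. HSPE1 had 5.42 and 5.57 FPKM in the vehicle control and 4.33 and 4.19 after MGH-CP1, from 70 to 135 fragments. Its span lies within that of HSPD1, which is on the opposite strand and held 6559 to 14703 fragments. Since the strand setting is not given, reads of this pair in a shared stretch cannot be told apart. The higher mitochondrial share of the treated libraries stands beside these values, and its part in them was not tested.

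**Figure D4:**
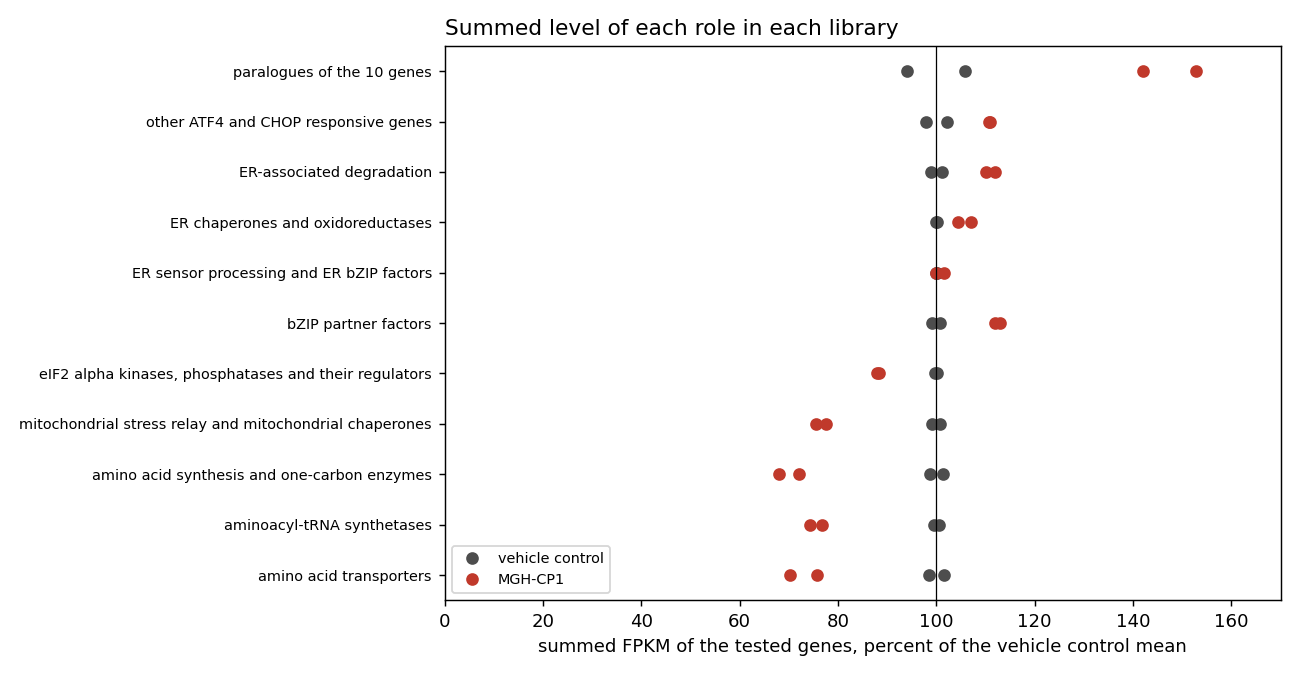
Summed FPKM of the tested genes of each list in each library (horizontal axis, percent of the mean of the vehicle control libraries; grey points are vehicle control, red MGH-CP1). Both MGH-CP1 libraries lie well below the controls for the 3 amino acid lists and the mitochondrial list, whose ratios of means are 0.701, 0.730, 0.756 and 0.765. They lie above the controls for ER chaperones (1.06), ER-associated degradation (1.11), other ATF4 and CHOP responsive genes (1.11), the bZIP list (1.13) and the paralogues (1.47). Abundant genes weigh most in each sum.

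Summed over their genes, the 3 amino acid lists stood at 0.701 (synthesis), 0.730 (transporters) and 0.756 (tRNA synthetases) of the control level. ER chaperones stood at 1.06, ER-associated degradation and the other ATF4 and CHOP responsive genes at 1.11, and the bZIP list at 1.13. The paralogues stood at 1.47, the sensor processing list at 1.01, the eIF2α list at 0.882 and the mitochondrial list at 0.765. Abundant genes weigh most in such sums. Among the paralogues (2 higher, 1 lower) the mean of TRIB2 went from 17.3 to 32.3 FPKM. Among the ER chaperones (3 higher, 1 lower) that of CALR went from 596 to 689. The bZIP list had 2 genes higher and 3 lower, with a median log2 fold change of -0.06.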

How the data were processed

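RNA of MDA-MB-231 cells was measured in 4 libraries, 2 with MGH-CP1 and 2 with vehicle control, grouped by their titles. Novogene sequenced mRNA that had been selected with poly-T beads, with paired reads of 150 bp. The submitters' processing notes name CASAVA 1.8, STAR and hg19; the counting tool, annotation release and strand setting are not given in the sources used here. The authors deposited FPKM per gene, without replicates pooled, and these are whole multiples of a single fragment's worth for 100% of the values (tolerance 0.01), which gave back the fragment numbers. At FPKM 1, a gene of 1 kb held 17.6 to 25.5 fragments, and low values are the least precise.

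From the FPKM, log2(FPKM + 1) was taken for genes with a mean of 1 or more and tested by limma 3.58.1 under R 4.3.3 (lmFit, eBayes with trend, prior degrees of freedom 5.97, two-sided, Benjamini-Hochberg adjustment). Adding 1 understates the fold changes of low genes. An exact permutation test of 2 libraries against 2 cannot go below 0.333, so the calls rest on variance shared between genes. The script was tested on simulated data. Alternatives were another pseudocount, other filters, scalings and variance models, limma voom on the recovered fragments, thinning, the replicate number as a block, and leaving out each library.

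The 10 genes and the lists were chosen with earlier results of these data known. Named were the 10 genes, the 3 called genes of each list with the largest change whose groups did not overlap, any gene of lists of at most 9, CYR61, CTGF and ANKRD1, and the 3 genes nearest to ATF4; others are named for a sequence match, a marker role, or as said. The marker PECAM1 was not analysed here. RefSeq windows of GRCh38.p14 were searched for the elements by letters.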

Additional observations from a re-analysis of the deposited data

How the results depend on the processing

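Of the 10 genes, the number called higher (2) was 0 with no filter on low values, 0 at a mean FPKM of at least 5 (where 5 of the 10 were tested), 1 with quantile normalization, 1 with limma voom, 1 with fragments thinned to equal depth and 0 with variance not shared between genes, and 0 to 2 with 1 library left out. The number called lower (3) was 1 with no filter, 0 with variance not shared and 1 to 2 with 1 library left out. With variance not shared, 0 pathway genes were called higher and 0 lower, against 22 and 47, and over all genes 9 were called higher and 4 lower, while 4947 had an unadjusted p under 0.05. Among fold changes near 0, the sign turned for ATF4 (-0.0379), CHAC1 (-0.0217) and CARS (-0.0350) with median-ratio scaling and for CHAC1 (-0.0634) and HSPA5 (-0.0470) with quantile normalization. With 1 library left out, the range was -0.0509 to 0.0834 for ATF4, -0.0221 to 0.0695 for CHAC1, -0.0562 to 0.0897 for CARS and -0.264 to 0.0512 for SESN1. The cause was not tested. With the replicate number as a block, 2 of the 10 genes were higher and 3 lower, and 24 and 49 pathway genes. The differences between replicates 1 and 2 of the groups had a correlation of 0.0777 over 12080 genes, with 2 pairs, so the samples share a number and are not shown to be paired. Leaving out a library leaves 1 in its group, which is then assumed to vary like the other group. The fragment number, 85 to 107 for DDIT3, limits what could be detected for the low genes.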
